A study of Camelus dromedarius with 10 samples.

Results

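Matrix metalloproteinases (MMPs), ADAMs and ADAMTS enzymes are 3 related families of zinc-dependent proteases, listed here as 53 genes together with BMP1, the enzyme that removes the C-terminal propeptide of procollagen. Their RNA was examined in the supraoptic nucleus (SON), a hypothalamic nucleus of magnocellular neurones that make vasopressin and oxytocin, of male dromedary camels aged 4 to 5 years. The 5 control animals drank freely, and the 5 water-deprived (WD) animals had no water for 20 days. Each library was made from the total RNA of the rostral SON of 1 animal, taken from one side of the brain according to the labels, after removal of ribosomal RNA, and libraries are named here by group and animal number (CON2, CON3, CON4, CON5 and CON13, and WD6, WD7, WD8, WD9 and WD15). The members were chosen by name, and 50 of the 53 were paired with one of the 22444 gene IDs of the count table. MMP10, MMP21 and ADAMTS8 were not paired and are not analysed here.

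MMPs are secreted or held at the cell surface and cut collagens, gelatin and other proteins of the extracellular matrix. ADAMs sit in the plasma membrane and, where they are active proteases, release the outer part of other membrane proteins, a process called shedding. ADAMTS enzymes are secreted, and several of them cut the large chondroitin sulphate proteoglycans that fill the space between brain cells, while others trim procollagen. Most of these enzymes are made as inactive precursors, many of which furin-like convertases, plasmin or other MMPs can activate, and the tissue inhibitors of metalloproteinases (TIMPs) block them. RNA therefore measures how much transcript for the enzyme is present and not its activity.

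Levels are given as counts per 1e+06 counts (CPM) after TMM scaling of the library totals. They are not divided by transcript length, for which no table was used here, so CPM is read between libraries for 1 gene and not between genes. Libraries held 1665098 to 7518432 counts in control and 4227685 to 8126641 in WD, but 5 gene IDs took 27.7% to 76.1% of a library. Outside these IDs CON13 kept 397495 counts and WD6 kept 1106575, against 2078393 to 5872137 in the other 8 libraries, and 1 count was worth 1.20 CPM in CON13, 0.475 CPM in WD6 and 0.0864 to 0.237 CPM elsewhere. All 5 magnocellular markers examined (SIM1, OTP, ARNT2, PDYN and PCSK1N) had enough counts to be tested, while the pituitary hormones PRL, GH1, CGA and TSHB and VIP, a peptide of the suprachiasmatic nucleus, did not. Summed over the 5 markers the level was 648 to 908 CPM in control and 921 to 1549 CPM in WD, and PDYN, which encodes prodynorphin, was the only one of them above 0 and the only one past the threshold, while the other 4 were below 0 (PDYN log2 fold change 1.93, SE 0.22, adjusted p = 0.000302, edgeR). Vasopressin and oxytocin RNA were not analysed here.

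No metalloprotease passed the threshold for a change between WD and control camels. Of the 50 paired members, 40 had enough counts in enough libraries to be tested with edgeR's quasi-likelihood test, and 0 of these 40 had a Benjamini-Hochberg adjusted p of 0.05 or less, beside 0.499% of all 14432 genes tested. The smallest adjusted p among the members was 0.329, and DESeq2 also called 0 of the 40, with a smallest adjusted p of 0.195 beside 1.27% of its own 16447 genes called. At an unadjusted p under 0.05, edgeR found 4 of the 40 members (10.0%) and DESeq2 also found 4, and edgeR's share over all genes tested was 9.31%. All 4 (MMP2, ADAMTS9, ADAM15 and ADAMTS15) had lower values in WD, beside 4.41% of all genes with such a p and a lower value in WD. The number of such members with edgeR was 1 without CON2, 2 without CON13 and 2 without WD9, and it was 7 without CON4 and 7 without WD6. In no tested member were all WD libraries above or all below all control libraries, whereas this was so for 2.62% of all genes. In bulk tissue fewer cells of a type and less RNA per cell cannot be told apart, so none of the values below says which cells carry a difference.

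**Figure D1:**
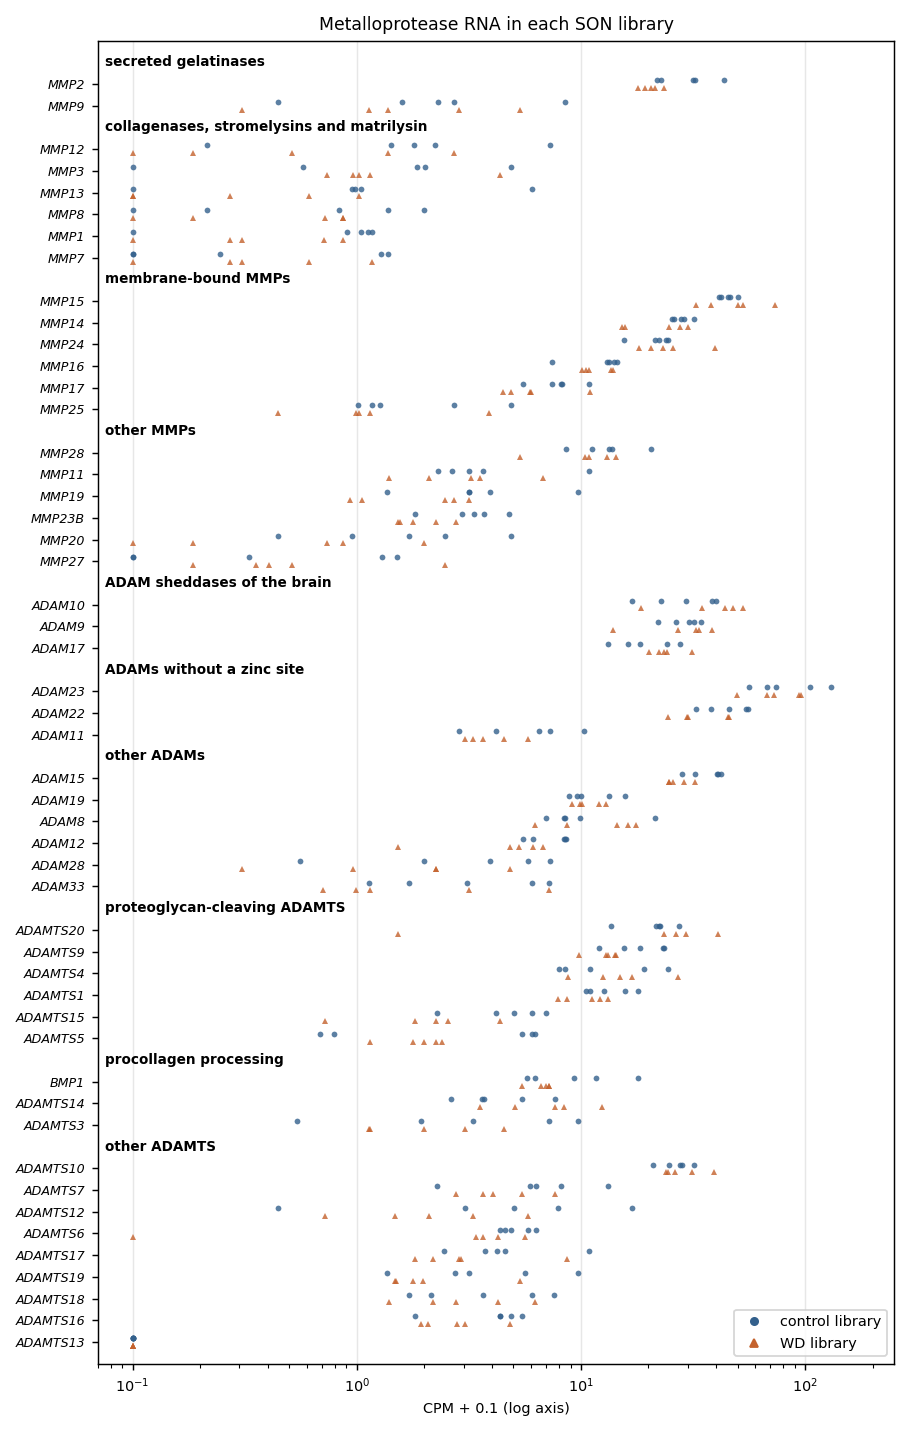
CPM of each of the 50 paired members in each library, plus 0.1 so that values of 0 can be drawn on the log axis, with blue circles for the 5 control libraries and orange triangles for the 5 WD libraries. Members stand under their role, and the symbols of the 2 groups overlap in every tested row. The collagenases, stromelysin and matrilysin have low values in most libraries, with higher points such as MMP13 at 5.98 CPM in CON13. ADAMTS13 is at 0 in all 10 libraries.

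The 2 gelatinases, MMP2 and MMP9, cut denatured collagen and the type IV collagen of basement membranes. MMP2 measured 43.3, 31.5, 21.8, 32.2 and 22.7 CPM in CON2, CON3, CON4, CON5 and CON13, and 20.4, 17.9, 21.2, 19.2 and 23.3 CPM in WD6, WD7, WD8, WD9 and WD15. The 5 WD libraries lay close together, and only WD15 reached the lower control libraries CON4 and CON13, while CON2 was the highest. The mean was 30.3 ± 8.72 CPM (SD, n = 5) in control and 20.4 ± 2.07 CPM (SD, n = 5) in WD. The log2 fold change, WD over control, was -0.59 (SE 0.21, 95% interval -1.03 to -0.16), with an unadjusted p of 0.0103 and an adjusted p of 0.329 by edgeR. MMP2 had the smallest p of all tested members, and its difference was not past the threshold. Leaving out 1 library at a time gave values of -0.72 to -0.45, with the smallest difference when CON2 was left out.

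MMP9, which neutrophils and macrophages make in inflamed tissue, had only 95 counts in the 10 libraries together. It measured 1.49, 2.60, 0.344, 2.20 and 8.37 CPM in CON2, CON3, CON4, CON5 and CON13, and 5.22, 1.28, 2.77, 1.04 and 0.208 CPM in WD6, WD7, WD8, WD9 and WD15. The highest value of each group came from its library with the fewest counts outside the dominant IDs, where CON13 held 7 counts and WD6 held 11. The log2 fold change was -0.27 (95% interval -1.94 to 1.39, adjusted p = 0.952, edgeR), and it became 0.22 without CON13.

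Collagenases (MMP1, MMP8 and MMP13), stromelysin MMP3, matrilysin MMP7 and the macrophage elastase MMP12 were near the floor of the measurement. None of these 6 was tested, and their counts over all 10 libraries were 36 for MMP1, 35 for MMP8, 31 for MMP13, 62 for MMP3, 26 for MMP7 and 63 for MMP12. No single library held more than 17 counts of any of them, and each was at 0 in at least 1 library. A count of 0 allows up to 3 counts, which is 0.259 CPM in WD9 and 3.59 CPM in CON13, so a low level in CON13 was not measurable. Counts of MMP20, which cuts the enamel matrix of teeth, and of MMP27 were as low (47 and 21). In the RefSeq gene table of another camel assembly, MMP7, MMP20, MMP27, MMP8 and MMP1 follow each other with 0 other protein-coding genes between neighbours, and MMP12 and MMP13 come next after 1 more gene, so 7 of the members with few counts sit in a single gene cluster.

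The membrane-bound MMPs were measured better, with 5 of 6 tested, and all 5 had 95% intervals between -1 and 1 on the log2 scale. MMP14, which activates the MMP2 precursor at the cell surface, measured 25.8, 31.7, 27.8, 25.5 and 28.7 CPM in the control libraries CON2, CON3, CON4, CON5 and CON13, and 15.2, 27.4, 30.0, 15.6 and 24.6 CPM in WD6, WD7, WD8, WD9 and WD15. WD6 and WD9 were below every control library, and the other 3 WD libraries lay among or just under the control values. Its log2 fold change was -0.29 (SE 0.21, interval -0.74 to 0.16, adjusted p = 0.736, edgeR), and it ran from -0.44 without WD8 to -0.18 without WD9. MMP15, a close relative of MMP14, had 45.3, 45.9, 42.0, 41.3 and 50.2 CPM in the control libraries in the same order, and 73.1, 52.5, 32.6, 50.2 and 37.9 CPM in the WD libraries. Control values were within a narrow range, and WD values lay on both sides of it, with WD6 highest. Its log2 fold change was 0.13 (SE 0.20, interval -0.30 to 0.56, adjusted p = 0.905, edgeR), and it was -0.038 without WD6. The other members of this role were MMP24, found mainly in the nervous system, at 21.5 ± 3.54 and 25.3 ± 8.38 CPM (SD, n = 5 each, control and WD), MMP16 at 12.4 ± 2.86 and 11.7 ± 1.80 CPM, and MMP17 at 7.94 ± 1.91 and 6.36 ± 2.62 CPM. MMP25, which leukocytes make, had 66 counts in all and was not tested.

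Of the other MMPs, MMP28, MMP11, MMP19 and MMP23B were tested and all 4 had values below 0, with adjusted p from 0.697 to 0.932 by edgeR. MMP28 (epilysin) had the most counts of them, with 13.4 ± 4.40 CPM in control and 10.7 ± 3.46 CPM in WD (SD, n = 5 each) and a log2 fold change of -0.20 (SE 0.28). Leaving out 1 library moved this value from -0.35 without CON4 to -0.056 without WD6.

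Among ADAMs, the 3 sheddases best known from brain all had values above 0, and none passed the threshold. ADAM10, the main alpha-secretase of the amyloid precursor protein and the protease that opens Notch signalling, measured 29.5, 22.7, 40.0, 38.4 and 16.7 CPM in CON2, CON3, CON4, CON5 and CON13, and 18.5, 34.7, 43.8, 47.4 and 52.5 CPM in WD6, WD7, WD8, WD9 and WD15. The 2 libraries with the fewest counts, CON13 and WD6, gave the lowest values of all 10, and WD8, WD9 and WD15 were above every control library. The log2 fold change was 0.38 (SE 0.26, interval -0.17 to 0.93, adjusted p = 0.707, edgeR), and it was 0.53 without WD6 (adjusted p = 0.306).

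ADAM17, which releases tumour necrosis factor and ligands of the epidermal growth factor receptor, measured 27.5, 24.1, 16.1, 18.3 and 13.2 CPM in CON2, CON3, CON4, CON5 and CON13, and 24.2, 20.0, 31.2, 23.2 and 22.1 CPM in WD6, WD7, WD8, WD9 and WD15. WD8 was the highest library, and the other 4 WD libraries lay inside the control range. Its log2 fold change was 0.25 (SE 0.22, interval -0.21 to 0.70, adjusted p = 0.791, edgeR), and it was 0.11 without WD8 and 0.16 with RNA integrity as a covariate. ADAM9 had the same mean in both groups to within 1 SD, with 28.9 ± 4.82 CPM in control and 29.0 ± 9.36 CPM in WD (SD, n = 5 each), and its interval was -0.47 to 0.50.

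ADAM11, ADAM22 and ADAM23 lack a working zinc site and act in adhesion and at synapses, where ADAM22 and ADAM23 bind the secreted protein LGI1. ADAM23 had 5193 counts over the 10 libraries, the most of any member, and measured 67.7, 74.3, 130.1, 105 and 56.2 CPM in CON2, CON3, CON4, CON5 and CON13, and 72.1, 93.6, 67.3, 95.3 and 49.4 CPM in WD6, WD7, WD8, WD9 and WD15. CON4 was the highest and WD15 the lowest. The spread within each group was wider than the distance between the means, which were 86.6 ± 30.3 and 75.5 ± 19.2 CPM (SD, n = 5 each). The log2 fold change was -0.22 (SE 0.23, adjusted p = 0.841, edgeR), and it was -0.039 without CON4 and -0.026 with RNA integrity as a covariate. ADAM22 measured 37.8, 32.4, 55.8, 54.2 and 45.4 CPM in CON2, CON3, CON4, CON5 and CON13, and 29.9, 45.3, 29.7, 45.6 and 24.4 CPM in WD6, WD7, WD8, WD9 and WD15. CON4 and CON5 were the highest, and WD7 and WD9 were the WD libraries inside the control range. Its log2 fold change was -0.36 (SE 0.22, interval -0.82 to 0.10, adjusted p = 0.663, edgeR). This value was -0.22 with RNA integrity as a covariate, -0.14 with library totals only and -0.49 without WD7. ADAM11 was at 6.12 ± 2.87 and 3.96 ± 1.13 CPM (SD, n = 5 each).

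ADAM15, an active protease with an integrin-binding site that endothelial cells express, was the only ADAM with an unadjusted p under 0.05. It measured 40.6, 40.2, 28.1, 32.1 and 41.8 CPM in CON2, CON3, CON4, CON5 and CON13, and 24.7, 28.6, 25.7, 24.7 and 32.3 CPM in WD6, WD7, WD8, WD9 and WD15. WD7 and WD15 overlapped with CON4 and CON5, and the other 3 WD libraries were below every control library. The mean was 36.6 ± 6.10 CPM in control and 27.2 ± 3.27 CPM in WD (SD, n = 5 each), with a log2 fold change of -0.41 (SE 0.18, interval -0.79 to -0.03, unadjusted p = 0.0371, adjusted p = 0.492, edgeR). The remaining ADAMs were ADAM8, ADAM12, ADAM19, ADAM28 and ADAM33, with adjusted p of 0.691 to 0.974 by edgeR. The counts of ADAM8 matched those of a second gene ID to within 1% in every library, so its level is uncertain.

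**Figure D2:**
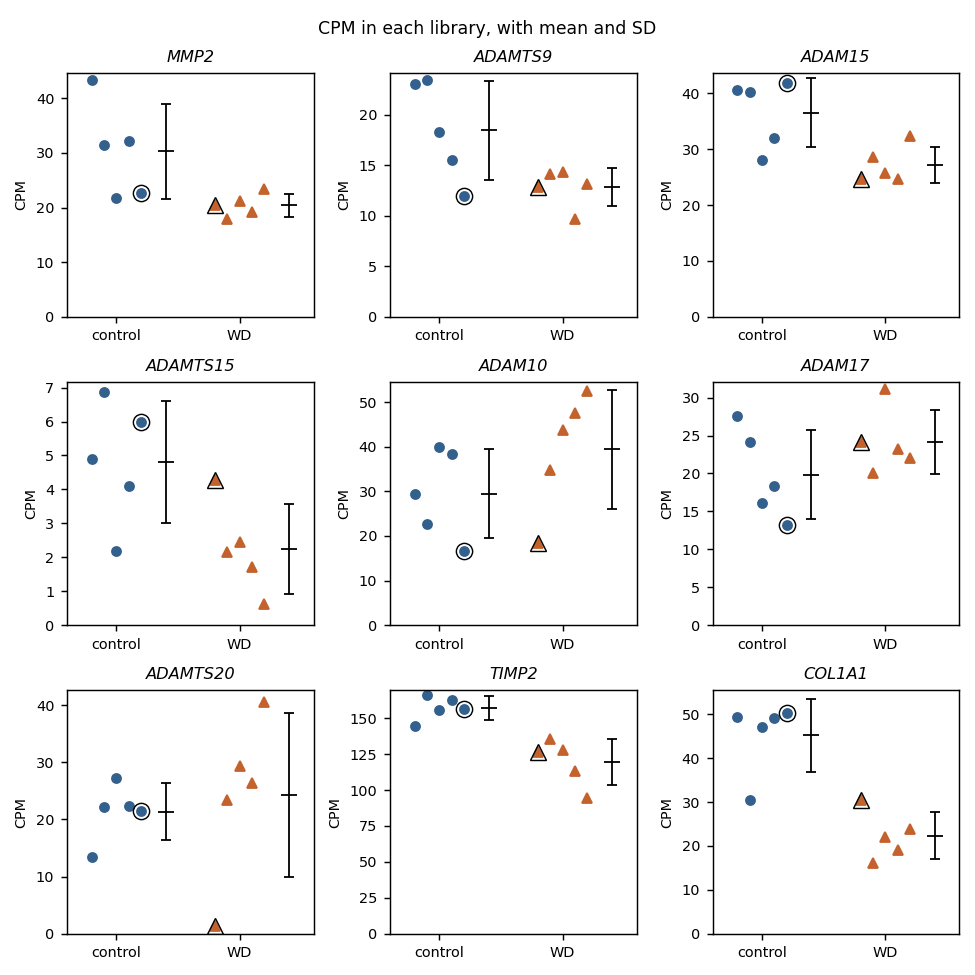
CPM in each library for 7 metalloproteases, the inhibitor TIMP2 and the collagen gene COL1A1, with blue circles for control, orange triangles for WD, and the mean and SD of 5 libraries as a black bar beside each group. Rings mark CON13 and WD6, which kept the fewest counts once the dominant IDs are set aside. MMP2, ADAMTS9, ADAM15 and ADAMTS15 sit lower in WD with overlapping groups, ADAMTS20 is at 1.42 CPM in WD6 alone, and TIMP2 and COL1A1 do not overlap.

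ADAMTS enzymes that cut versican, aggrecan and related proteoglycans were tested in 6 of 6 paired members. ADAMTS9 measured 23.1, 23.4, 18.2, 15.5 and 12.0 CPM in CON2, CON3, CON4, CON5 and CON13, and 12.8, 14.2, 14.3, 9.68 and 13.1 CPM in WD6, WD7, WD8, WD9 and WD15. CON13 lay inside the WD range, and WD9 was the lowest of all. The mean was 18.4 ± 4.92 CPM in control and 12.8 ± 1.86 CPM in WD (SD, n = 5 each), with a log2 fold change of -0.57 (SE 0.22, interval -1.03 to -0.10, unadjusted p = 0.0194, adjusted p = 0.413, edgeR).

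ADAMTS15 had few counts, 169 in all, with 5 in CON13 and 3 in WD15. It measured 4.91, 6.86, 2.18, 4.10 and 5.98 CPM in CON2, CON3, CON4, CON5 and CON13, and 4.27, 2.17, 2.46, 1.73 and 0.625 CPM in WD6, WD7, WD8, WD9 and WD15. CON4 lay among the WD libraries and WD6 among the control libraries. The log2 fold change was -1.12 (SE 0.50, interval -2.17 to -0.06, unadjusted p = 0.0390, adjusted p = 0.502, edgeR), and leaving out 1 library gave values from -1.37 to -0.88.

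ADAMTS20, another versican-cleaving enzyme, had 1 library far from the rest. It measured 13.4, 22.2, 27.3, 22.4 and 21.5 CPM in CON2, CON3, CON4, CON5 and CON13, and 1.42, 23.5, 29.3, 26.4 and 40.6 CPM in WD6, WD7, WD8, WD9 and WD15. WD6 held 3 counts of it, whereas CON13, with fewer counts in all, held 18, and the other 8 libraries held 63 to 306. The log2 fold change was 0.22 (SE 0.40, interval -0.63 to 1.06, adjusted p = 0.929, edgeR), 0.47 without WD6 (adjusted p = 0.364) and -0.016 without WD15. The remaining proteoglycan-cleaving members were ADAMTS1 at 13.5 ± 3.17 and 10.5 ± 2.27 CPM, ADAMTS4 at 14.1 ± 7.25 and 16 ± 6.90 CPM, and ADAMTS5 at 3.75 ± 2.86 and 1.82 ± 0.493 CPM (SD, n = 5 each, control and WD), with adjusted p of 0.733, 0.969 and 0.734 by edgeR.

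Procollagen is trimmed at its N-terminal end by ADAMTS3 and ADAMTS14 and at its C-terminal end by BMP1. BMP1 was at 10.1 ± 5.00 CPM in control and 6.58 ± 0.727 CPM in WD (SD, n = 5 each), with CON13 highest at 17.9 CPM, and its log2 fold change was -0.49 (SE 0.31, adjusted p = 0.683, edgeR), or -0.30 without CON13 and -0.30 with the 2 levels of depth as a covariate. ADAMTS14 had the highest fitted value of all tested members (log2 fold change 0.63, SE 0.40, adjusted p = 0.680, and 0.40 without WD6 or 0.36 with RNA integrity as a covariate), and ADAMTS12, a member of the last group, had the lowest (log2 fold change -1.21, SE 0.74, adjusted p = 0.663). Both were named after their values were seen, and the intervals of both include 0. ADAMTS12 ranged over the control libraries from 0.344 CPM in CON4, with 3 counts, to 16.7 CPM in CON13, with 14 counts, and its value was -0.71 without CON13, -1.60 without CON4 and -0.56 with the 2 levels of depth as a covariate.

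The last group held 9 ADAMTS genes, of which 8 were tested and 7 of the 8 had values below 0, with adjusted p from 0.663 to 0.917 by edgeR. ADAMTS10, which binds fibrillin microfibrils, was measured best among them, at 26.6 ± 4.13 CPM in control and 28.8 ± 6.36 CPM in WD (SD, n = 5 each) with a log2 fold change of 0.13 (SE 0.20), which was 0.0027 without WD15 and 0.0020 with RNA integrity as a covariate. ADAMTS13, the plasma protease that cuts von Willebrand factor, had 0 counts in all 10 libraries, which allows up to 0.259 CPM in WD9.

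**Figure D3:**
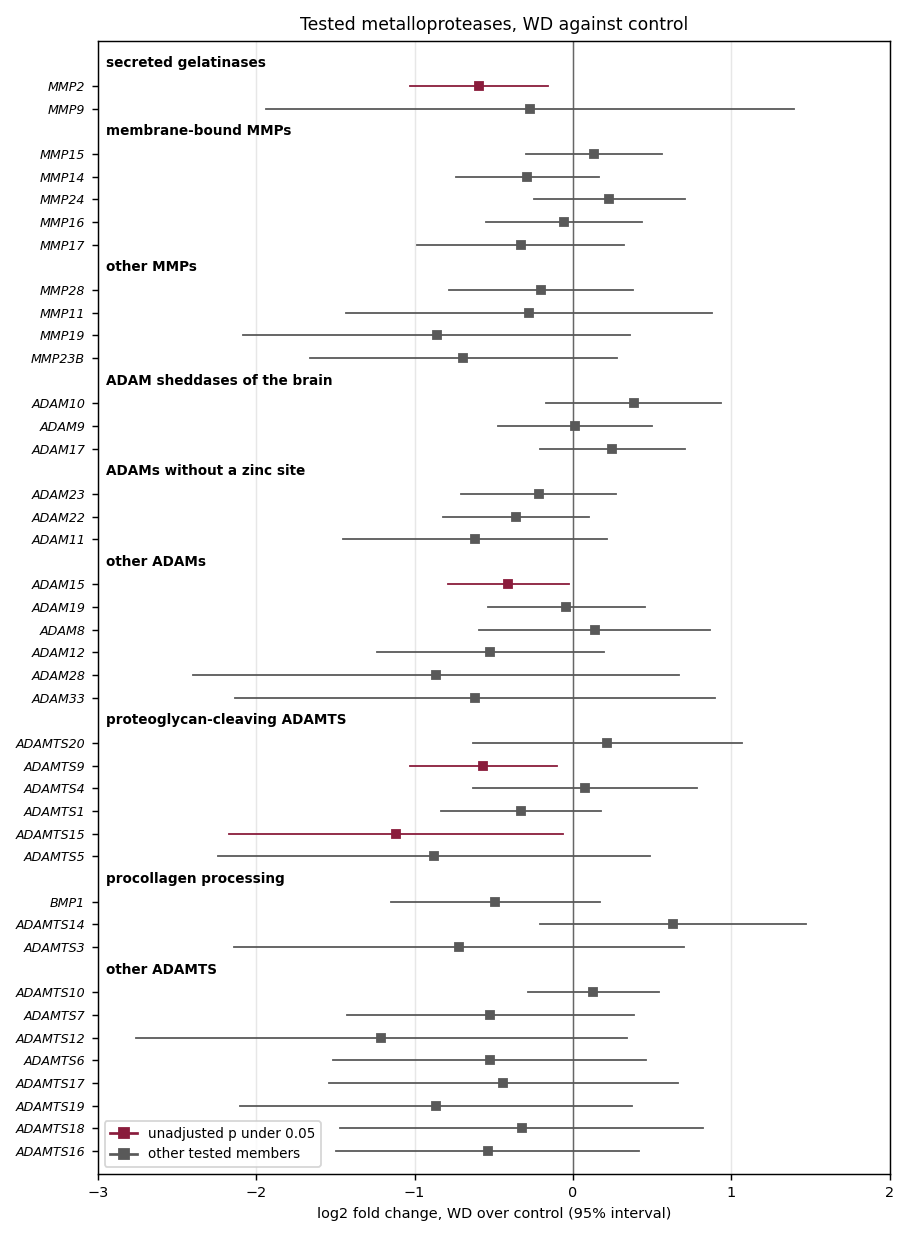
Log2 fold change, WD over control, from edgeR for the 40 tested members under their roles, as a square with its 95% interval. The 4 members with an unadjusted p under 0.05 (MMP2, ADAM15, ADAMTS9 and ADAMTS15) are in dark red and all lie below 0, and 30 of the 40 squares lie below 0.

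Across the 40 tested members, 30 (75.0%) had a log2 fold change below 0, beside 48.1% of all genes tested, and the median was -0.34 beside 0.02 for all genes. This leaning was seen mainly in members with few counts. Of the 21 tested members with a mean under 10 CPM over both groups, 20 were below 0 (95.2%, beside 56.2% of all tested genes in that range) and the median was -0.54. Of the 19 with a mean of at least 10 CPM, 10 were below 0 (52.6%, beside 43.3% of all tested genes in that range) and the median was -0.04. Intervals were also much wider in the first set, where 1 of 21 lay between -1 and 1, than in the second, where 16 of 19 did. Over all genes tested 66.2% lay there, 30.3% of those with a mean under 10 CPM and 87.4% of those with at least 10 CPM.

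The level of these 21 members differed between libraries of unlike depth. Summed over them it was 109.5 CPM in CON2, 123 CPM in CON3, 52.4 CPM in CON4, 72.9 CPM in CON5 and 181 CPM in CON13, and 111 CPM in WD6, 65.2 CPM in WD7, 75.7 CPM in WD8, 50.0 CPM in WD9 and 56.7 CPM in WD15. CON13, the shallowest library, was the highest, and WD9, the deepest, was the lowest, and WD6 and WD15 were lower than some libraries that had more counts outside the dominant IDs. CON13 was the highest control library in 11 of these 21 members. The sum over all genes tested with a mean under 10 CPM had its highest value in the same library, from 36664 CPM in CON13 to 25264.5 CPM in CON4. The sum of the 19 better measured members was 469 to 543 CPM in control and 449 to 503 CPM in WD, and it was lowest in WD6 (449 CPM) and next lowest in CON13 (469 CPM), the 2 shallowest libraries. The part of depth in the values below 0 was not tested, and depth and WD cannot be fully told apart in these libraries.

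The count and median of the 21 members depended on which libraries were compared. Without CON13, 18 of the 21 were below 0 with a median of -0.49, and without WD6 it was 20 of 21 with a median of -0.74. With 1 library left out, the median ran from -0.81 without CON4 (20 of 21) to -0.46 without CON3 (20 of 21). Without both CON13 and WD6, 19 of the 21 were tested and 18 were below 0 with a median of -0.58. With a covariate of 2 levels, the 5 libraries with fewer and the 5 with more counts outside the dominant IDs, 18 of the 21 were below 0 with a median of -0.31, and 0 members passed the threshold. Within these 2 sets of libraries the arms were small and unequal in depth, so the values are given with no test. Among CON2, CON3, CON13, WD6 and WD15 (397495 to 2387355 counts), 19 of the 21 had a lower mean log2(CPM + 0.5) in WD, with a median difference of -0.79. Among CON4, CON5, WD7, WD8 and WD9 (3140019 to 5872137 counts), 10 of the 21 were lower, with a median difference of 0.0080. Of the 19 better measured members, 11 were lower in the first set and 10 in the second. MMP2 (-0.52 and -0.44), ADAMTS9 (-0.51 and -0.41), ADAM15 (-0.53 and -0.19), ADAMTS15 (-1.46 and -0.43) and TIMP2 (-0.50 and -0.35) were lower in both sets. These genes were picked out in the same libraries, so the values give no separate support.

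**Figure D4:**
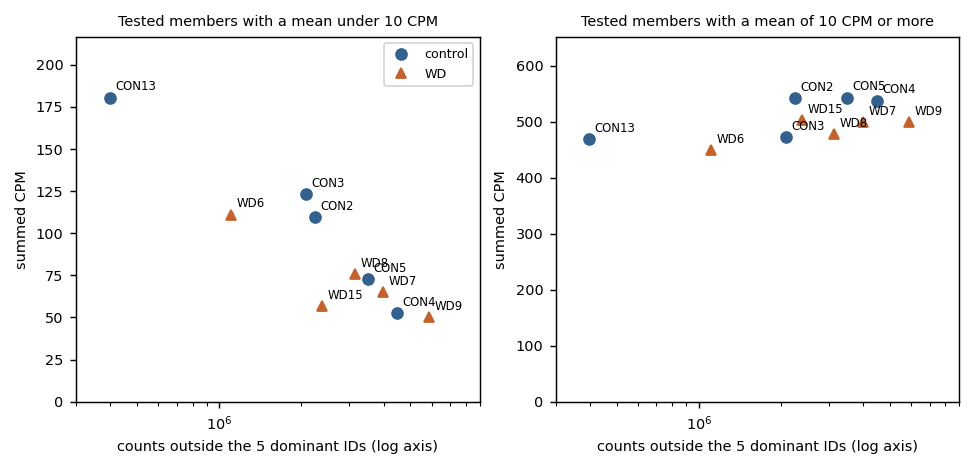
Summed CPM of the 21 tested members with a mean under 10 CPM (left) and of the 19 with a mean of 10 CPM or more (right) against the counts of each library outside the 5 dominant gene IDs, on a log axis. The left sums fall from 181 CPM in CON13 to 50.0 CPM in WD9, and the right sums run from 449 CPM in WD6 and 469 CPM in CON13, the 2 shallowest libraries, to 543 CPM in CON5.

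TIMPs bind the active site of these enzymes, and TIMP2 also helps MMP14 to activate MMP2. TIMP2 was the only TIMP whose groups did not overlap, and it did not pass the threshold. It measured 144, 166, 156, 163 and 157 CPM in CON2, CON3, CON4, CON5 and CON13, and 127, 135, 128, 113 and 94.6 CPM in WD6, WD7, WD8, WD9 and WD15. Every WD library was below every control library, as for 2.62% of all genes in either direction. The mean was 157 ± 8.30 CPM in control and 119.6 ± 16.1 CPM in WD (SD, n = 5 each), with a log2 fold change of -0.39 (SE 0.15, interval -0.72 to -0.07, unadjusted p = 0.0204, adjusted p = 0.419, edgeR) and an adjusted p of 0.0866 by DESeq2. TIMP3, which is bound to the matrix and inhibits ADAM17, was at 101 ± 28.7 and 101 ± 20.0 CPM. TIMP1 and TIMP4 had few counts, at 3.69 ± 0.937 and 2.70 ± 1.30 CPM for TIMP1 and 2.96 ± 0.784 and 3.09 ± 1.21 CPM for TIMP4 (SD, n = 5 each, control and WD), and the adjusted p of TIMP1, TIMP3 and TIMP4 were 0.839, 0.998 and 0.980 by edgeR.

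Of 7 proteases that activate metalloproteinase precursors directly or by way of plasmin (FURIN, PCSK5, PCSK6, PCSK7, PLG, PLAU and PLAT), 0 passed the threshold. An unadjusted p under 0.05 by edgeR was found for 2 of the 7, in opposite directions, beside 9.31% of all genes. PCSK5 had the smallest p of the list, with 12.0, 15.1, 7.46, 9.52 and 12.0 CPM in CON2, CON3, CON4, CON5 and CON13, and 6.17, 4.46, 9.53, 5.27 and 4.79 CPM in WD6, WD7, WD8, WD9 and WD15. WD8 alone reached the control values. Its log2 fold change was -0.87 (SE 0.29, adjusted p = 0.299, edgeR), while that of FURIN, named after its value was seen, was 0.61 (SE 0.22, adjusted p = 0.349).

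Proteins that ADAMs release were tested in 19 genes, of which 11 had values above 0 and 0 passed the threshold (2 of the 19 had an unadjusted p under 0.05, beside 9.31% of all genes). TNFRSF1B, a receptor of tumour necrosis factor that ADAM17 sheds, had the smallest p, with 28.5 ± 6.62 CPM in control and 48.4 ± 21.7 CPM in WD (SD, n = 5 each) and a log2 fold change of 0.73 (SE 0.28, adjusted p = 0.413, edgeR). The genes for tumour necrosis factor, amphiregulin and epiregulin (TNF, AREG and EREG) had 22 to 48 counts in all and were not tested. Of the 4 genes for beta- and gamma-secretases, which cut the same substrates as ADAM10 or what it leaves, 0 passed the threshold. PSEN2 had the smallest p among them, at 38.6 ± 2.88 CPM in control and 52.1 ± 9.46 CPM in WD (SD, n = 5 each), with an adjusted p of 0.433 by edgeR and every WD library above every control library, where 2.62% of all genes had groups that did not overlap.

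Among 9 matrix substrates, 1 passed the threshold, beside 0.499% of all genes, and 2 had groups that did not overlap, beside 2.62%. COL1A1, which encodes a chain of type I collagen, had lower values in WD. It measured 49.3, 30.5, 47.2, 49.2 and 50.2 CPM in CON2, CON3, CON4, CON5 and CON13, and 30.4, 16.2, 22.0, 19.2 and 24.0 CPM in WD6, WD7, WD8, WD9 and WD15. WD6 was just below CON3, and the groups did not overlap. Its log2 fold change was -1.04 (SE 0.21, interval -1.47 to -0.60, adjusted p = 0.0239, edgeR). Without 1 library the adjusted p by edgeR was 0.0741 (CON2), 0.0616 (CON4), 0.0940 (CON5), 0.0546 (CON13), 0.0810 (WD7), 0.0714 (WD8), 0.0870 (WD9) or 0.0522 (WD15). COL1A1 still passed without CON3 and without WD6 (adjusted p = 0.00686 without WD6, edgeR). The log2 fold change stayed between -1.17 and -0.95 in all of these. COL3A1, which encodes the chain of type III collagen, was at 41.9 ± 6.42 CPM in control and 23.1 ± 5.84 CPM in WD (SD, n = 5 each), and its groups did not overlap either. Its fitted log2 fold change was -0.86 (SE 0.21), with an adjusted p of 0.0857 by edgeR, which did not pass the threshold, and of 0.00765 by DESeq2, which did. The other 7 (FN1, COL2A1, COL4A1, FBN1, AGRN, NCAN and VWF) did not pass by edgeR. The paper names COL1A1 and COL3A1 among the genes whose change in WD its qRT-PCR of the rostral SON did not reproduce.

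Markers of cell types that could hold these enzymes were read beside them. Of 6 fibroblast markers 3 were tested, with COL1A1 and COL3A1, which are also matrix substrates above, below 0 and PRRX1 above 0, and TWIST1, TWIST2 and OSR1 had too few counts. The summed fibroblast markers ranged from 73.8 to 105 CPM in control and from 42.9 to 77.4 CPM in WD. All 3 mural cell markers were tested, 2 of them below 0, with sums of 49.0 to 72.5 CPM in control and 42.0 to 60.0 CPM in WD. One of them, HEYL, was at 22.2 ± 9.45 CPM in control and 10.2 ± 2.97 CPM in WD (SD, n = 5 each), with a log2 fold change of -1.16 (SE 0.29) and an adjusted p of 0.104 by edgeR and 0.0351 by DESeq2, and PDGFRB was at 36.9 ± 2.09 and 42.2 ± 9.45 CPM. All 6 markers of microglia and other myeloid cells had values above 0, with sums of 183 to 311 CPM in control and 221 to 671 CPM in WD, and 0 of them passed the threshold. Endothelial markers were above 0 in 6 of 7, with sums of 244 to 434 CPM in control and 257 to 526 CPM in WD. All 3 astrocyte markers were above 0, with sums of 702 to 983 CPM in control and 865 to 1307 CPM in WD, and the groups of AGT did not overlap (log2 fold change 0.67, SE 0.19, adjusted p = 0.192 by edgeR and 0.0214 by DESeq2). The 3 markers listed as neuronal were CNTN1, CAMK2B and NCAN, of which NCAN is also a matrix substrate above. They were below 0 in 2 of 3, with sums of 356 to 457 CPM in control and 335 to 434 CPM in WD. CAMK2B had a log2 fold change of -0.51 (SE 0.19, adjusted p = 0.367, edgeR), and NCAN had one of -0.05. Markers of the oligodendrocyte lineage were below 0 in 6 of 8, with sums of 131 to 345 CPM in control and 136 to 267 CPM in WD. The part of any of these cell types in the values of the metalloproteases or TIMPs was not tested.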

How the data were processed

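Total RNA of the SON was sequenced after ribosomal depletion in 5 control and 5 WD libraries. The authors used STAR for alignment (assembly Camdro2) and featureCounts for read pairs per gene, and they deposited whole-number counts without normalization for 22444 IDs. A second deposited table holds a signal per gene, the counts divided by DESeq2's size factors (a single factor fits each library to a relative error of 5.4e-10), used here only for an alternative order by level. The annotation release, the strand setting and the treatment of shared read pairs are not given in the sources used here.

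Symbols came from the study's supplementary tables. The members and all gene lists were chosen with earlier results of these data known. WD and control were compared with edgeR 4.0.16 (R 4.3.3): TMM, filterByExpr by group, robust quasi-likelihood F test, Benjamini-Hochberg adjustment over the 14432 genes tested, threshold 0.05. The SE is the log2 fold change divided by the square root of F. The test was tested on simulated counts. DESeq2 1.42.0 was an alternative, beside other scalings, filters and covariates and each library left out. Per-library values are given for members with an unadjusted p under 0.05, the 5 with the highest control level, ADAM10, ADAM17, MMP2, MMP9 and MMP14, and a fold change for the highest tested member of each role. No transcript lengths, protein sequences or Camdro2 coordinates were used here, so the level was CPM and the planned order per length and zinc-site search are not analysed here. ADAMTS20 was given per library after its values were seen. A floor of 3 counts stands for a count of 0 and, like depth itself, covers counting error only. Each library comes from 1 animal and so counts as 1 replicate. No 2 libraries of a group agreed within sampling noise (chi-square over degrees of freedom at least 8.03). RNA integrity was used only as a covariate.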

Additional observations from a re-analysis of the deposited data

Results flagged for a closer look

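Of 88 groups of 5 libraries (40 tested members and 4 TIMPs, control and WD), 10 held a library far from the other 4 on the log2(CPM + 0.5) scale, and 5 of the 10 involved WD6. For normal values of equal spread the cut-off would flag about 1 group in 20. Counts were few in CON13 and WD6 and the 88 groups share the same libraries, so that rate need not hold here. In WD6, ADAMTS20 was at 1.42 CPM (3 counts) against 23.5 to 40.6 CPM in the other WD libraries, ADAMTS6 at 0 CPM (0 counts) against 3.32 to 5.53 CPM, and ADAM12 at 1.42 CPM (3 counts) against 4.72 to 6.67 CPM. ADAMTS17 in WD6 was high at 8.54 CPM (18 counts) against 1.73 to 2.81 CPM, as was ADAMTS19 at 5.22 CPM (11 counts) against 1.38 to 1.88 CPM. MMP11 was high in CON13 at 10.8 CPM (9 counts) against 2.20 to 3.56 CPM in the other control libraries. MMP16 was low in CON3 at 7.33 CPM against 13 to 14.3 CPM, and ADAMTS16 was low in CON4 at 1.72 CPM against 4.25 to 5.34 CPM. ADAMTS9 was low in WD9 at 9.68 CPM against 12.8 to 14.3 CPM, and TIMP4 was high in WD8 at 5.22 CPM against 2.30 to 2.85 CPM. A floor of 3 counts in WD6 is 1.42 CPM, so the 0 counts of ADAMTS6 there allow up to that level. No cause of these values was tested.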

How the results depend on the processing

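The number of members past the threshold was 0 in all 20 alternatives. The number with an unadjusted p under 0.05 was 4, 0 with library totals only, and 1 to 7 when 1 library was left out. The number below 0 was 30, 12 of 18 members fitted with at least 10 counts in every library, and 28 to 33 when 1 library was left out (this count was added after the data were seen). The median log2 fold change ran from -0.50 to -0.30 with 1 library left out and from -0.45 to -0.20 under the other alternatives. Library totals alone moved the median of all genes from 0.02 to 0.16. Sign changes were read only for the 27 genes followed under the alternatives, and other members also changed sign. Of the 27 these were MMP15 (-0.038 without WD6, -0.023 without both CON13 and WD6, an alternative added after the data were seen, -0.038 to 0.23 with 1 library left out), MMP9 (0.0076 with depth as a covariate, -0.76 to 0.22 with 1 library left out, 0.22 without CON13, 0.0086 without WD15), MMP28 (0.033 with library totals only, 0.038 without CON13 and WD6), ADAMTS20 (-0.016 without WD15, up to 0.47 without WD6), TIMP3 (0.18 with library totals only, 0.0064 with no filter, 0.015 with at least 10 counts in every library, -0.12 to 0.11 with 1 library left out, above 0 without CON4, CON5, WD6 or WD9) and TIMP4 (-0.092 with RNA integrity as a covariate, -0.24 to 0.21 with 1 library left out, below 0 without CON4 or WD8). COL3A1 passed the threshold with DESeq2 (adjusted p = 0.00765) and with depth as a covariate (edgeR, adjusted p = 0.0204), and COL1A1 did not with library totals only. The cause of these changes was not tested. The order of members by control CPM and by the deposited normalized counts was the same for all 49 members with a count, and the order per length was not run. No paired analysis was possible because the groups share no replicate numbers. Of the members with a mean under 10 CPM, 1 of 21 had an interval between -1 and 1, beside 30.3% of all genes in that range.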
